A study of Mus musculus with 22 samples.

Results

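The genes described here are the 51 proteasome genes measured in inguinal white fat of mice, among 22180 genes tested. They were chosen by symbol, as every gene whose symbol starts with Psma, Psmb, Psmc, Psmd, Psme, Psmf or Psmg followed by a digit, with Nfe2l1 and Pomp added. The proteasome is the protease that degrades ubiquitin-tagged proteins. Its barrel, the 20S core, has outer rings of alpha subunits and inner rings of beta subunits, of which Psmb5, Psmb6 and Psmb7 encode the constitutive catalytic ones. The 19S cap, made of ATPases (Psmc genes) and of non-ATPase base and lid subunits (Psmd genes), binds tagged proteins and feeds them into the core. Under interferon, and in immune cells, Psmb8, Psmb9 and Psmb10 take the catalytic places and form the immunoproteasome, which makes peptides for MHC class I. Nfe2l1, the transcription factor also known as TCF11 or NRF1, drives genes of constitutive subunits, and in brown fat of mice it is known to be needed for proteasome activity in cold.

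The study asked whether cold acts on this depot, in which cold brings out heat-producing beige adipocytes, without PPARα, a nuclear receptor for fatty acids. Groups of male mice aged 3 to 4 months were measured, with 1 whole-transcript array per mouse and 22 arrays in all. They were 5 PPARα-null mice at 5 °C, 5 wild-type mice at 5 °C, 6 PPARα-null mice at 28 °C and 6 wild-type mice at 28 °C. Null mice lack PPARα in every cell type, and both genotypes had been backcrossed to C57BL/6J for more than 10 generations. All mice ate chow and first spent 5 weeks at 28 °C, and the cold groups then had 1 week at 21 °C and 10 days at 5 °C. The warm groups had 10 days at 28 °C after those 5 weeks, with no week at 21 °C recorded. The labels name 10 mice housed per group and do not say how the arrayed ones were picked.

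Values are log2 expression values, so 1 unit is a doubling, and a fold is 2 to the power of the change. Changes are 5 °C minus 28 °C, or null minus wild type, from limma with its standard error (SE). Genes whose adjusted p (Benjamini-Hochberg, across the 22180 genes) lay under 0.05 were called higher or lower, and every adjusted p below is of this kind unless stated otherwise. Correlations between arrays ran between 0.958 and 0.981. The white adipocyte markers averaged 10.91 to 11.28 per mouse at 5 °C and 11.13 to 11.30 at 28 °C. Single ones moved apart: of 8, 2 fell with cold in null mice and 1 in wild-type mice, and 0 rose in either. On average over the genotypes 1 of them rose and 2 fell. All 8 brown and beige markers rose with cold in both genotypes (Ucp1 by 6.90 in null mice and 7.05 in wild-type mice). The Ppara probe set read 6.66, 5.99, 5.77, 5.99 and 7.10 in the null mice at 5 °C, against 6.98, 6.48, 6.88, 6.13 and 6.50 in the wild-type mice at 5 °C. At 28 °C it ran between 4.14 and 5.45 in null mice and between 4.42 and 5.00 in wild-type mice. The sources used here do not place it inside or outside the disrupted part of the gene, so it checks no genotype label. A lower level in a whole fat pad can mean fewer cells of a type or less RNA per cell, which cannot be told apart here.

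By role the 51 genes comprised 6 alpha ring subunits, 7 constitutive beta ring subunits, 6 ATPases and 11 base and lid subunits of the 19S cap, which are the 30 constitutive subunits. The others were the 3 inducible catalytic subunits, 8 assembly chaperones (Psmd5, Psmd9, Psmd10, Psmg1 to Psmg4 and Pomp), 4 activators (Psme1 to Psme4), the inhibitor Psmf1 and Nfe2l1. The symbol rule also took in the testis subunit Psma8 and the thymus subunit Psmb11, with means of 2.94 and 2.76 over all arrays, and the interacting proteins Psmc3ip and Psme3ip1, which are no subunits. Psma4 was not counted, because its probe sets carry several symbols. The rule also left out the lid subunit Sem1, whose symbol has another stem. Of the 51 genes, 46 had a mean above the median gene's 4.67, and the dim ones included the brightest probe set of Psma5 (mean 3.59) and that of Psmg4 (mean 3.76).

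Cold raised most genes of the constitutive proteasome in both genotypes and raised none of the inducible catalytic subunits. Of the 51 genes, 20 rose and 1 fell in null mice, where 6.88% of all genes rose and 6.33% fell. In wild-type mice 24 rose and 0 fell by limma, where 8.35% of all genes rose and 8.3% fell, and among the changes below 0 that of Psmb8 alone had an unadjusted p under 0.05 (0.0419). The 2 genotypes shared 18 of these rises. Averaged over the genotypes, 30 rose and 2 fell, against 11.7% and 13.1% of all genes. With the dimmest 50% of genes left out, 46 of the 51 were tested and the shares of all genes called were larger. In null mice 25 rose and 2 fell, against 15.3% and 16.3% of the genes kept. In wild-type mice 28 rose and 0 fell, against 17% and 19.9%. On average 34 rose and 3 fell, against 22.2% and 27.8%. With array medians subtracted, which tips the balance of all genes upward, the shares were 7.97% higher and 4.68% lower in null mice, and 10.7% higher and 6.1% lower in wild-type mice. Of the 51 genes, 23 were then called higher and 1 lower in null mice, and 26 higher and 0 lower in wild-type mice. The median change of the 51 genes was 0.21 in null mice and 0.19 in wild-type mice, and that of all genes was −0.0034 and 0.0093.

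The 30 constitutive subunits all had a change above 0 in each genotype. In null mice 18 of them rose, and in wild-type mice 18 rose, with median changes of 0.25 and 0.24. On average over both genotypes 24 of the 30 rose. Their mean per mouse was 8.08, 7.93, 7.97, 8.09 and 7.99 in the null mice at 5 °C, against 7.62 to 7.87 (median 7.73) in null mice at 28 °C. In wild-type mice the same mean was 8.05, 8.06, 7.98, 8.02 and 8.06 at 5 °C, against 7.66 to 7.85 (median 7.75) at 28 °C. The cold and warm mice did not overlap in this mean in either genotype. Of the 51 single genes, 15 were higher in every cold null mouse than in every warm null mouse and 18 in wild-type mice, where 5.05% and 6.27% of all genes were.

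**Figure D1:**
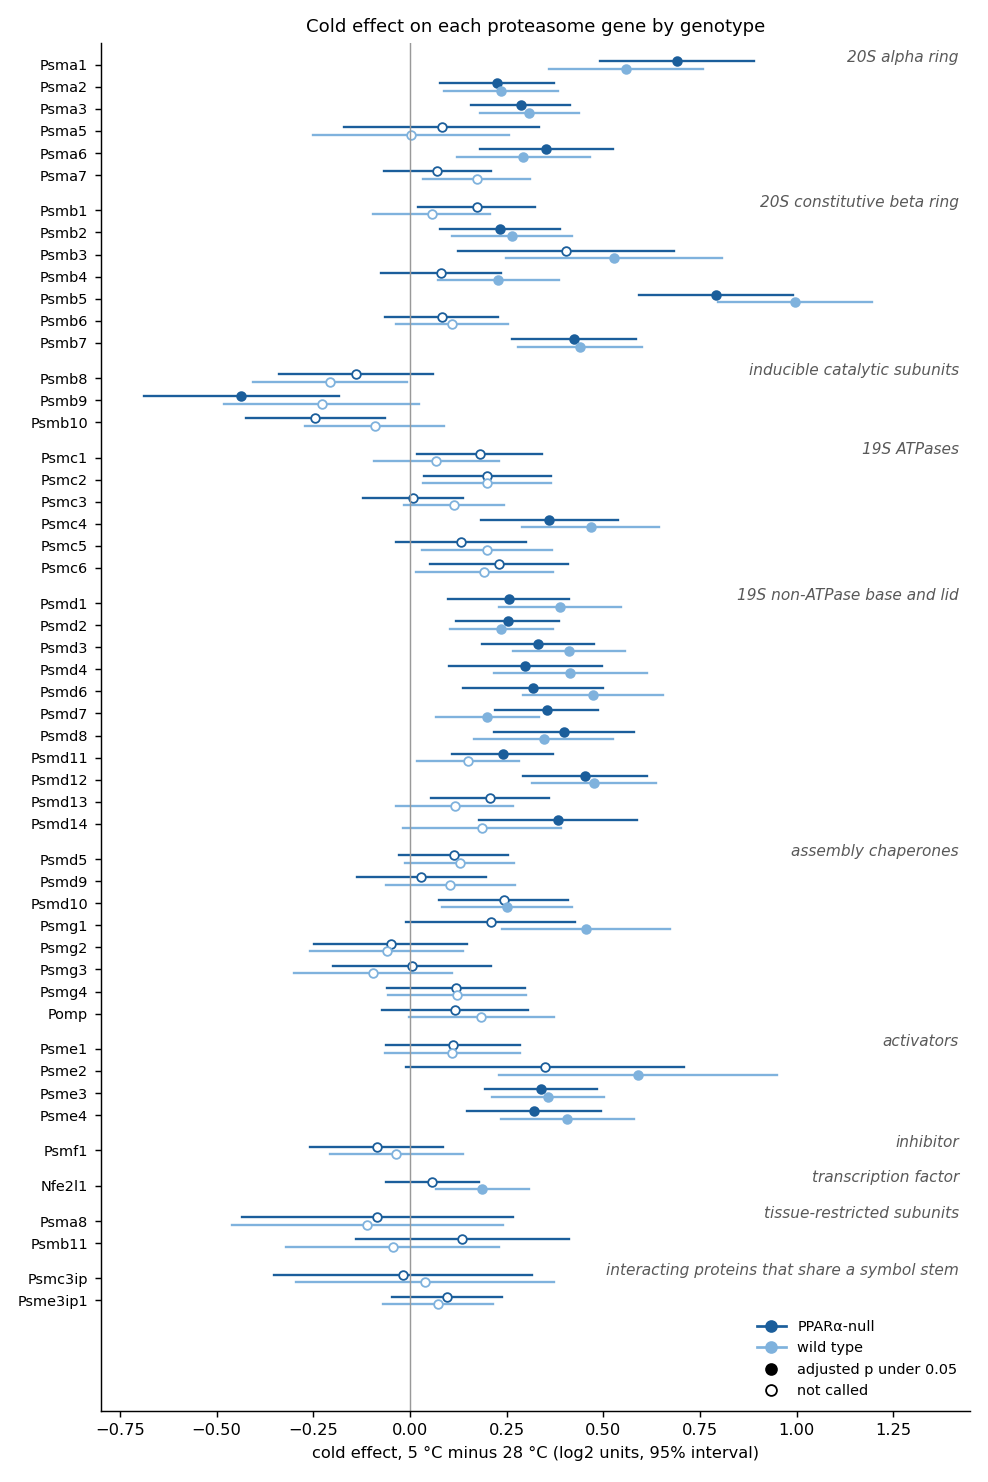
Each row is 1 gene, grouped by role, and the x axis is the change with cold in log2 units with its 95% interval. Filled points passed the adjusted p of 0.05 in null (dark) or wild-type (light) mice. Psmb5 lies farthest right at 0.79 and 1.00, the base and lid genes lie between 0.12 and 0.48, and Psmb8, Psmb9 and Psmb10 lie left of 0.

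The largest rise was that of Psmb5, the constitutive subunit with chymotrypsin-like activity and the target of bortezomib (GRCm38.p6 chromosome 14, from 54614120). Psmb5 was at 8.27, 8.05, 8.00, 8.21 and 8.11 in the null mice at 5 °C, against 7.15 to 7.49 (median 7.39) in null mice at 28 °C. It was at 8.25, 8.47, 8.11, 8.16 and 8.35 in the wild-type mice at 5 °C, against 7.05 to 7.59 (median 7.29) in wild-type mice at 28 °C. Every cold mouse was above every warm mouse of its genotype. The rise was 0.79 in null mice (SE 0.10, 1.73-fold, adjusted p = 4.32e-06) and 1.00 in wild-type mice (SE 0.10, 1.99-fold, adjusted p = 1.52e-07). The cold effects differed by −0.20 between null and wild-type mice, with a 95% interval of −0.49 to 0.08.

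Of the other catalytic subunits of the constitutive core, Psmb7 rose and Psmb6 was not called. Psmb7, which carries the trypsin-like activity, was at 9.43, 9.24, 9.20, 9.37 and 9.25 in the null mice at 5 °C, against 8.79 to 8.99 (median 8.86) in null mice at 28 °C. It was at 9.38, 9.25, 9.32, 9.27 and 9.52 in the wild-type mice at 5 °C, against 8.73 to 9.09 (median 8.90) in wild-type mice at 28 °C. Its groups did not overlap in either genotype, and it rose by 0.43 (SE 0.08, adjusted p = 0.000494) and 0.44 (SE 0.08, adjusted p = 0.000276). Psmb6, which carries the caspase-like activity, overlapped between cold and warm mice and was not called, at 0.08 in null mice (95% interval −0.06 to 0.23) and 0.11 in wild-type mice (−0.04 to 0.25). The cold null mice had Psmb6 at 7.68 to 7.79 and the warm ones at 7.50 to 7.95, and the cold wild-type mice at 7.67 to 7.85 and the warm ones at 7.54 to 7.72. Among the non-catalytic beta subunits, Psmb3 rose in wild-type mice (0.53, SE 0.13, adjusted p = 0.00781) and was at 0.40 in null mice (adjusted p = 0.0501), from a probe set with a mean of 4.96 over all arrays. Psmb2 rose in both genotypes, Psmb4 in wild-type mice, and Psmb1 in neither.

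In the alpha ring, which gates the barrel, 4 of 6 genes rose in each genotype, Psma1 most. Psma1 was at 8.15, 8.07, 7.87, 8.14 and 7.88 in the null mice at 5 °C, against 7.02 to 7.55 (median 7.38) in null mice at 28 °C, and the groups did not overlap. It was at 7.94, 7.88, 7.90, 8.03 and 8.13 in the wild-type mice at 5 °C, against 7.24 to 7.62 (median 7.37) in wild-type mice at 28 °C, again without overlap. The rise was 0.69 in null mice (SE 0.10, 1.61-fold, adjusted p = 2.27e-05) and 0.56 in wild-type mice (SE 0.10, 1.47-fold, adjusted p = 0.000219). Psma6 rose by 0.35 and 0.29, Psma3 by 0.29 and 0.31, and Psma2 rose as well. Psma7 and the dim Psma5 were not called.

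The promoter windows of the gene that rose most and of the alpha subunit that rose most are shown, since both moved together with other constitutive subunits. They run from 250 bases before to 50 bases after the RefSeq start of transcription on GRCm38.p6, with Psmb5 at chr14:54617946-54618245 and Psma1 at chr7:114276067-114276366, both on the minus strand. The capitals mark TGACNNNGC, the core of the antioxidant response element to which Nfe2l1 binds, and CCAAT on either strand, where it reads ATTGG on the other one.
Psmb5: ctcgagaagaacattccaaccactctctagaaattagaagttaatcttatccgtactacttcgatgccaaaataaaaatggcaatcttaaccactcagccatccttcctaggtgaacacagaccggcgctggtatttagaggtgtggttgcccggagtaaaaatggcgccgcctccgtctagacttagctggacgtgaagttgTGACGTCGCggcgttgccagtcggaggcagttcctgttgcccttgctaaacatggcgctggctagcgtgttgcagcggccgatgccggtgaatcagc
Psma1: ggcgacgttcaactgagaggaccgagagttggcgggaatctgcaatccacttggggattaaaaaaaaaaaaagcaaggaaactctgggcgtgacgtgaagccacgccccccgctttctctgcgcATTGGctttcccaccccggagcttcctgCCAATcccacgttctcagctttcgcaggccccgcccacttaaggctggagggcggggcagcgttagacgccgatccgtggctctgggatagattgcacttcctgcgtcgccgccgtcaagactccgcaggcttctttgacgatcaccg
In the Psmb5 window 1 stretch, TGACGTCGC, started at position −47 from the start of transcription, and the Psma1 window held CCAAT at −98 and its reverse at −126. RefSeq windows were at hand for 43 of the 51 genes. TGACNNNGC on either strand occurred in 15.38% of the 26 windows of constitutive subunits and in 12.39% of all 32851 promoter windows of the same length. The full form TGACTCAGC occurred in 0 of the 26 and in 0.45% of all, and CCAAT in 38.46% and 37.41%. These are matches of letters in a window of 300 bases and nothing else was searched.

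In the 19S cap, which recognises tagged proteins, most of the rises were among the base and lid genes. All 11 base and lid genes taken in by the symbol rule rose on average over the genotypes. Of these, 10 rose in null mice and 8 in wild-type mice, with median changes of 0.32 and 0.35. The measured lid subunit Sem1, listed below among the proteins that bind the proteasome, is not among them. Sem1 was not called in either genotype or on average. Psmd12, a lid subunit, was at 8.56, 8.43, 8.37, 8.74 and 8.46 in the null mice at 5 °C, against 7.98 to 8.20 (median 8.00) in null mice at 28 °C. It was at 8.48, 8.64, 8.40, 8.71 and 8.60 in the wild-type mice at 5 °C, against 7.97 to 8.21 (median 8.10) in wild-type mice at 28 °C. Neither genotype showed overlap, and Psmd12 rose by 0.45 (SE 0.08, 1.37-fold, adjusted p = 0.000253) and 0.48 (SE 0.08, 1.39-fold, adjusted p = 0.000124). Psmd6, another lid subunit, rose by 0.32 in null mice, where the lowest cold and the highest warm mouse both read 7.10, and by 0.47 in wild-type mice. Psmd8 rose by 0.40 and 0.35, and 1 warm wild-type mouse at 9.38 reached into the range of the cold ones, 9.36 to 9.54. Psmd14, the deubiquitinase of the lid, and Psmd11 were called in null mice, and Psmd13 in neither genotype. The difference of the cold effects was not called for any of these.

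Of the 6 ATPases, 4 rose on average over the genotypes and only Psmc4 rose in each of them. Psmc4 was at 8.61, 8.17, 8.51, 8.65 and 8.44 in the null mice at 5 °C, against 7.90 to 8.24 (median 8.15) in null mice at 28 °C, so that 1 cold mouse lay within the warm range. It was at 8.59, 8.60, 8.43, 8.43 and 8.51 in the wild-type mice at 5 °C, against 7.92 to 8.24 (median 8.02) in wild-type mice at 28 °C, with no overlap. The rises were 0.36 (SE 0.08, adjusted p = 0.00539) and 0.47 (SE 0.08, adjusted p = 0.000393). Psmc6 (0.23 in null and 0.19 in wild-type mice) and Psmc2 (0.20 in both) were called only on the average of the genotypes, with adjusted p = 0.0122 and 0.0104, as was Psmc5. All 6 ATPases had changes above 0, and Psmc1 and Psmc3 were not called. Without the replicate 3 mouse of the wild-type cold group, whose Psmc2 value of 8.10 was the lowest of its group, Psmc2 was called in wild-type mice as well (0.26, adjusted p = 0.0264).

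The catalytic subunits of the immunoproteasome lay below their 28 °C levels, and only part of this passed the test. Psmb9, the inducible counterpart of Psmb6, was at 6.44, 6.52, 6.57, 6.60 and 6.35 in the null mice at 5 °C, against 6.77 to 7.11 (median 6.89) in null mice at 28 °C. All cold null mice were below all warm null mice, and Psmb9 fell by 0.44 (SE 0.12, adjusted p = 0.018). Of 22 fits that left out 1 array, this call was lost in 1, that without the null cold replicate 5 (−0.40, adjusted p = 0.0523), and of 11 other settings in 1, the macrophage marker mean as a covariate (−0.06, adjusted p = 0.945). It was at 7.15, 6.76, 6.54, 6.55 and 6.50 in the wild-type mice at 5 °C, against 6.70 to 7.30 (median 6.85) in wild-type mice at 28 °C. Here the groups overlapped and the change of −0.23 was not called (SE 0.12, adjusted p = 0.227). The cold effects in the 2 genotypes differed by −0.21, with a 95% interval of −0.56 to 0.15, and this difference was not called. The replicate 1 mouse of the wild-type cold group had the highest Psmb8, Psmb9 and Psmb10 values of its group. Without it the wild-type change of Psmb9 was −0.34 (adjusted p = 0.0446).

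Psmb8, the inducible counterpart of Psmb5, was at 7.81, 8.03, 7.96, 7.99 and 7.85 in the null mice at 5 °C, against 7.94 to 8.31 (median 8.04) in null mice at 28 °C. It was at 8.13, 7.85, 7.86, 7.95 and 7.97 in the wild-type mice at 5 °C, against 7.95 to 8.43 (median 8.12) in wild-type mice at 28 °C. Both pairs of groups overlapped. Its changes of −0.14 (95% interval −0.34 to 0.06) and −0.21 (−0.41 to −0.01) were not called, nor was their average of −0.17 (adjusted p = 0.067).

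Psmb10, the inducible counterpart of Psmb7, was at 7.81, 7.89, 8.00, 7.81 and 7.85 in the null mice at 5 °C, against 7.97 to 8.29 (median 8.08) in null mice at 28 °C. It was at 8.23, 7.78, 8.07, 7.76 and 7.74 in the wild-type mice at 5 °C, against 7.86 to 8.07 (median 8.03) in wild-type mice at 28 °C. Neither change was called, at −0.24 (adjusted p = 0.0681) and −0.09 (adjusted p = 0.551), and the average of −0.17 passed narrowly (adjusted p = 0.0495). Without the wild-type cold replicate 1 the wild-type change was −0.17 (adjusted p = 0.188), and leaving out other single wild-type arrays brought it as near to 0 as −0.05. The averaged call was lost in 5 of 10 other settings and in 16 of 22 fits that left out 1 array. The change in null mice was called lower in 3 of 11 other settings and in 1 of those 22 fits.

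**Figure D2:**
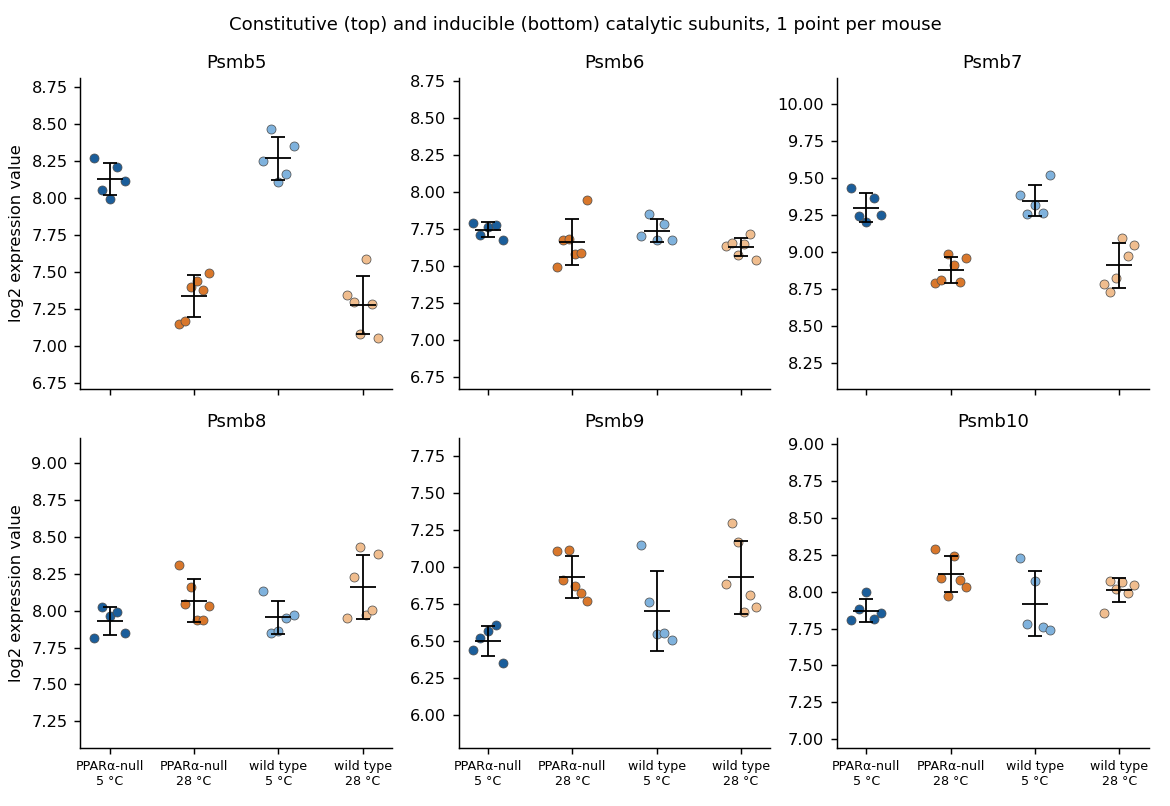
Log2 expression values of the constitutive catalytic subunits Psmb5, Psmb6 and Psmb7 (top) and of the inducible Psmb8, Psmb9 and Psmb10 (bottom), with 1 point per mouse, the mean and the SD. All panels span the same range of log2 units, so the steps in Psmb5 and Psmb7 and the shift of Psmb9 in the opposite direction can be set side by side.

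The windows before Psmb8 and Psmb9, which lie close together in the MHC region of chromosome 17, are shown for comparison with those of Psmb5 and Psma1, since neither gene rose. They are at chr17:34197945-34198244 on the plus strand and chr17:34187281-34187580 on the minus strand of GRCm38.p6, from RefSeq, and the capitals in the Psmb9 window mark CCAAT read on the other strand, at −8 from the start, while the Psmb8 window held no match.
Psmb8: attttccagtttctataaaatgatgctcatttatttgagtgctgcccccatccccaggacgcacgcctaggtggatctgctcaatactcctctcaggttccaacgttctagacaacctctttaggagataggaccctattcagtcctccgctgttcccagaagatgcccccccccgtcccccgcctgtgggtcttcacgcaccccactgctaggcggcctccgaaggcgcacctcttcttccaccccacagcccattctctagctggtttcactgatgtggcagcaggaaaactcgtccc
Psmb9: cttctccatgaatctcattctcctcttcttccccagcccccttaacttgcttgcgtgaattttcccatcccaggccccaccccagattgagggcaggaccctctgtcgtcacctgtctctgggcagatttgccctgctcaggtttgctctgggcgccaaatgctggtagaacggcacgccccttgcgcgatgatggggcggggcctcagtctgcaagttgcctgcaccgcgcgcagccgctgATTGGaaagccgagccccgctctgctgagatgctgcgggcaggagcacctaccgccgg
None of the 3 windows of inducible subunits held TGACNNNGC, TGACTCAGC or TTCNNTTTC, the core of interferon-response elements, on either strand. TTCNNTTTC occurred in 8.56% of all windows and in 15.38% of those of constitutive subunits.

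The balance between the inducible and the constitutive subunit of each catalytic place was followed as their difference within an array, of which only the change is read, since probe sets differ in brightness. Psmb8 minus Psmb5 was −0.46, −0.028, −0.035, −0.21 and −0.27 in the null mice at 5 °C, against 0.50 to 1.16 in null mice at 28 °C. It was −0.12, −0.62, −0.25, −0.21 and −0.38 in the wild-type mice at 5 °C, against 0.39 to 1.35 in wild-type mice at 28 °C. Cold minus warm, this difference changed by −0.93 (SE 0.13) in null mice and −1.20 (SE 0.18) in wild-type mice, with no overlap. Psmb10 minus Psmb7 averaged −1.43 ± 0.17 in cold null mice (SD, n = 5), against −0.76 ± 0.19 in warm ones (n = 6), and −1.43 ± 0.24 in cold wild-type mice, against −0.90 ± 0.14 in warm ones, again with no overlap. In exact two-sided permutation tests these 4 changes had p = 0.00216, the smallest that 462 splits can give, and p = 0.00325 after Benjamini-Hochberg adjustment over the 6 tests. These tests are not separate from the rises of Psmb5 and Psmb7, which lie in the same differences. Psmb8 and Psmb10 were not called in either genotype in the main fit, so a low p here does not mean that they fell.

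Psmb9 minus Psmb6 passed the test in null mice and missed it in wild-type mice. In cold null mice (n = 5) it averaged −1.25 ± 0.09 (SD), against −0.73 ± 0.26 in warm null mice (n = 6), and the highest cold and the lowest warm mouse both stood at −1.18. That change had an exact permutation p = 0.00433 (adjusted 0.00519). In wild-type mice the averages were −1.04 ± 0.28 at 5 °C and −0.70 ± 0.26 at 28 °C, the groups overlapped, and the exact permutation p was 0.0714. Without the wild-type cold mouse of replicate 1, at −0.55, the wild-type change was −0.46 (exact permutation p = 0.0143).

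**Figure D3:**
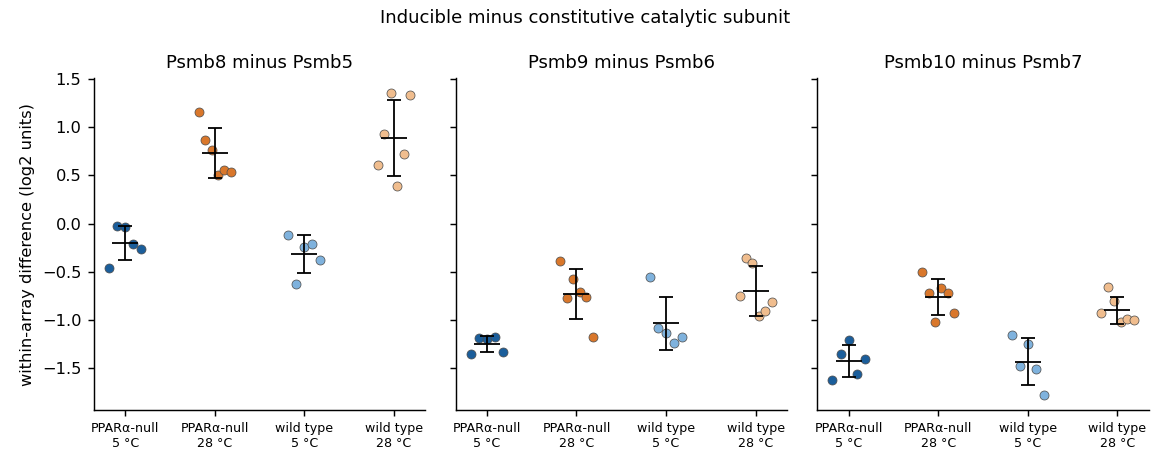
The inducible minus the constitutive subunit of each catalytic place, in log2 units within an array, with 1 point per mouse, the mean and the SD. Cold mice lie below warm mice of the same genotype for Psmb8 minus Psmb5 and Psmb10 minus Psmb7, and 1 cold wild-type mouse at −0.55 lies within the warm range for Psmb9 minus Psmb6.

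Markers of other cells moved with cold beside these genes. All 12 macrophage markers fell in both genotypes (medians −0.61 and −0.66). Their mean was 7.66 to 7.83 in cold null mice and 8.18 to 8.44 in warm ones, and 7.57 to 7.94 in cold wild-type mice and 8.24 to 8.52 in warm ones. All 8 preadipocyte and matrix markers fell as well (medians −0.61 and −0.70). Of the 12 B and T cell markers, all were lower with cold in both genotypes by value (medians −0.76 and −0.61) and 0 were called by limma, with 0 at an unadjusted p under 0.05 in either genotype. The B and T cell mean per mouse ran between 4.00 and 6.83 in cold null mice, 4.42 and 8.00 in warm null mice, 4.14 and 5.83 in cold wild-type mice and 4.37 and 7.50 in warm wild-type mice. Group means of single B and T cell markers lay between 3.81 (Cd3d, wild type at 5 °C) and 7.80 (Cd79a, null at 28 °C).

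Within groups, across the 22 arrays, the deviations of Psmb8 and Psmb9 ran with those of the B and T cell mean (Pearson's r = 0.58 and 0.56), those of Psmb10 less so (0.35), and those of Psmb5 the other way (−0.48). The lowest of the 51 genes was Psmd8 (−0.64). With the macrophage mean, r was 0.05 for Psmb8, 0.34 for Psmb9, 0.16 for Psmb10 and 0.04 for Psmb5. These correlations describe values from the same arrays, which share their RNA and normalization. With the B and T cell mean as a covariate, the change of Psmb9 was −0.37 in null mice (adjusted p = 0.0264), the average change of Psmb10 was −0.14 (adjusted p = 0.112), and the rise of Psmb5 was 0.75 and 0.96. With the macrophage mean as a covariate, a choice made after seeing the data, 0 of the 51 genes were called in null mice and 1, Psmb5, in wild-type mice, while all-gene calls of a rise dropped to 1.14% in each genotype. The median change of the 51 genes was then 0.24 and 0.23, and the wild-type change of Psmb9 was 0.18. The macrophage means of cold and warm mice do not overlap, so in this fit the covariate and temperature can hardly be told apart. The part of macrophages, lymphocytes and matrix cells in the changes was not tested otherwise.

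Skeletal muscle markers, another content of the dissected pad, had median cold changes of opposite sign, 0.51 in null mice and −0.68 in wild-type mice. In either genotype 0 of 12 were called by limma (0 and 1 at an unadjusted p under 0.05). At 28 °C all 12 were lower in null than in wild-type mice by value (median −1.64). Of these, 0 were called by limma and 9 had an unadjusted p under 0.05. At 5 °C the median was −0.47, with 10 lower, 0 called and 0 under that p. With cold the constitutive subunits had median changes of 0.25 in null mice and 0.24 in wild-type mice. The part of muscle in the changes was not tested.

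**Figure D4:**
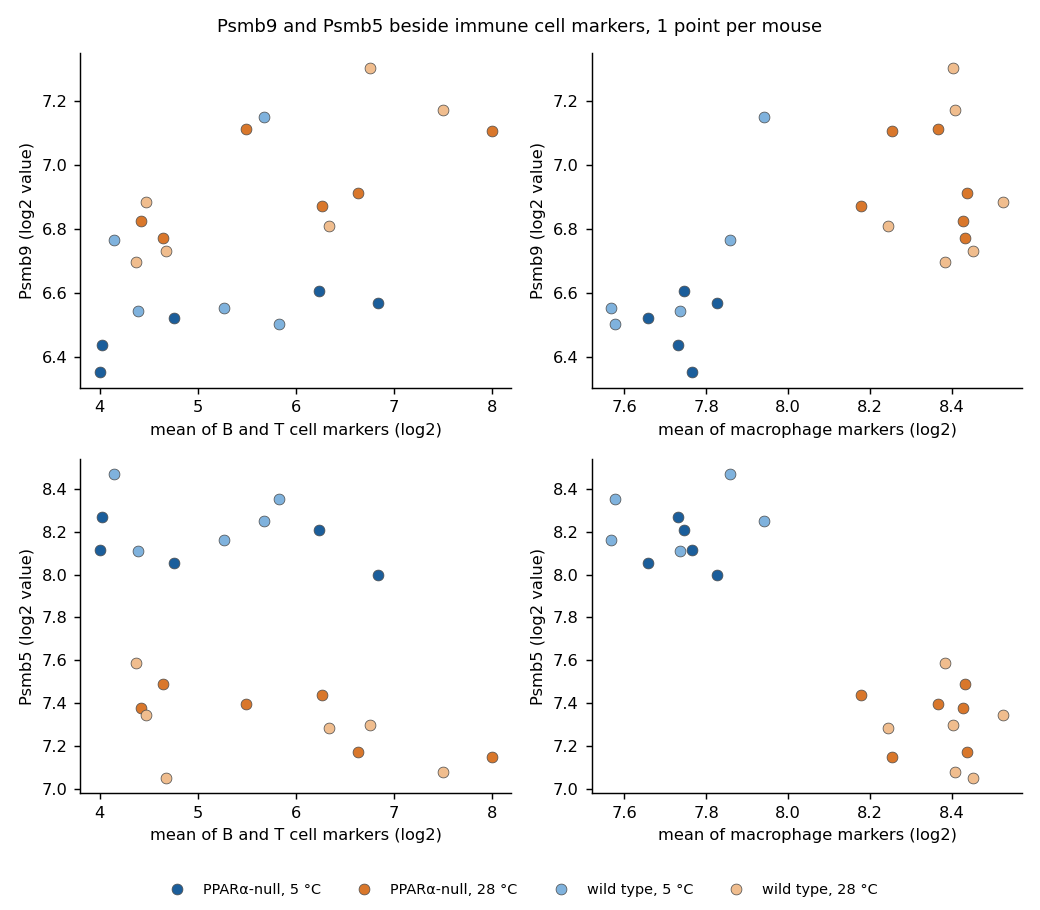
Log2 values of Psmb9 (top) and Psmb5 (bottom) per mouse against the mean of the B and T cell markers (left) and of the macrophage markers (right). The macrophage mean separates cold from warm mice, at no more than 7.94 in cold mice and no less than 8.18 in warm mice, while the B and T cell mean spreads from 4.00 to 8.00 across all groups.

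Part of the antigen processing genes that work beside the inducible subunits fell with cold. Of 11 measured, 4 fell in null mice, 2 in wild-type mice and 5 on average, and 0 rose. Of all genes, 6.33% fell in null mice, 8.3% in wild-type mice and 13.1% on average. With the dimmest 50% of genes left out, 16.3%, 19.9% and 27.8% of the genes kept fell. The 2 of 11 in wild-type mice lies near that share. Ifngr1, a chain of the interferon gamma receptor, fell by 0.55 in each genotype (SE 0.08, adjusted p = 6.66e-05 in null and 6.08e-05 in wild-type mice), and H2-K1, a class I heavy chain, fell by 0.33 and 0.38. B2m, the light chain, and Tapbp, which loads peptide onto class I, fell by 0.23 each in null mice, and their changes of −0.15 and −0.14 in wild-type mice were not called.

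Among the activators, which open the core without the 19S cap, 2 of 4 rose in null mice and 3 in wild-type mice. Psme3, the nuclear activator PA28 gamma, was at 6.80, 6.63, 6.80, 6.72 and 6.84 in the null mice at 5 °C, against 6.19 to 6.57 (median 6.42) in null mice at 28 °C. It was at 6.70, 6.72, 6.65, 6.76 and 6.88 in the wild-type mice at 5 °C, against 6.26 to 6.47 (median 6.39) in wild-type mice at 28 °C. The groups did not overlap, and the rises were 0.34 (SE 0.07, adjusted p = 0.0016) and 0.36 (SE 0.07, adjusted p = 0.000778). Psme4, or PA200, rose by 0.32 and 0.41, also without overlap. Psme1 and Psme2 encode the interferon-inducible activator PA28 alpha and beta, which partners the immunoproteasome.

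Psme1 and Psme2 differed in their calls. Psme1 was at 0.11 in both genotypes and was not called (95% intervals −0.06 to 0.29 and −0.06 to 0.28). Psme2 was at 6.01, 6.00, 5.79, 6.24 and 5.96 in the null mice at 5 °C, against 5.24 to 5.93 (median 5.71) in null mice at 28 °C, and its change of 0.35 was not called (adjusted p = 0.22). It was at 6.19, 6.82, 6.41, 6.12 and 5.52 in the wild-type mice at 5 °C, against 5.19 to 5.83 (median 5.66) in wild-type mice at 28 °C. That rise of 0.59 (SE 0.17, adjusted p = 0.0204) had overlapping groups and was not called without the wild-type cold replicate 2 (0.44), the wild-type cold replicate 3 (0.54) or the wild-type warm replicate 3 (0.50). A further probe set names Psme2 beside other genes and was not used. The inhibitor Psmf1 was not called, at −0.09 in null mice and −0.04 in wild-type mice.

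The assembly chaperones help build the rings and the base, and their median change was 0.11 in null and 0.13 in wild-type mice. Of 8, 0 rose in null mice by limma (1 at an unadjusted p under 0.05) and 2 rose in wild-type mice, Psmg1 and Psmd10. Psmg1 was at 6.59, 6.72, 6.75, 6.78 and 6.55 in the wild-type mice at 5 °C, against 6.05 to 6.39 (median 6.22) at 28 °C, with no overlap, and rose by 0.46 (SE 0.10, adjusted p = 0.00361). In null mice it was at 6.35 to 6.82 at 5 °C and 6.12 to 6.58 at 28 °C, and its change of 0.21 was not called, while the difference of the cold effects was −0.25 with a 95% interval of −0.56 to 0.06. Psmd10, or gankyrin, was at 0.24 in null mice, just short of the threshold (adjusted p = 0.05004), and in wild-type mice it rose by 0.25 (adjusted p = 0.0349). The wild-type call was lost in 7 of 22 fits that left out 1 array and in 2 of 11 other settings. The change in null mice was called in 7 of those fits and in 7 of those settings. Pomp, which matures the core and is needed for its beta subunits, was at 0.12 and 0.18 and was not called.

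Nfe2l1 itself was called in wild-type mice and on average over the genotypes. It was at 8.38, 8.45, 8.53, 8.53 and 8.41 in the null mice at 5 °C, against 8.29 to 8.53 (median 8.41) in null mice at 28 °C, and its change of 0.06 was not called (SE 0.06, adjusted p = 0.618). It was at 8.53, 8.56, 8.54, 8.59 and 8.62 in the wild-type mice at 5 °C, against 8.23 to 8.44 (median 8.40) in wild-type mice at 28 °C. Those groups did not overlap, and Nfe2l1 rose by 0.19 (SE 0.06, 1.14-fold, adjusted p = 0.0294). That call was lost in 4 of 22 fits that left out 1 array and in 3 of 11 other settings. The average change was 0.12 (adjusted p = 0.0323), a call lost in 6 of 22 such fits and in 3 of 10 other settings. The cold effects differed by −0.13 between null and wild-type mice (95% interval −0.30 to 0.04), which was not called. NFE2L1 is made at the endoplasmic reticulum and is known to be activated by extraction, deglycosylation and cleavage of the protein, of which an array of RNA measures nothing.

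Of 10 measured genes of that processing and of related transcription factors, 2 rose in each genotype. These were Nploc4 (0.35 and 0.33) and Ufd1 (0.31 and 0.30), partners of the segregase VCP in extracting proteins from the endoplasmic reticulum. On average over the genotypes Syvn1, a ubiquitin ligase there, rose too (0.20), and its partner Sel1l (−0.14) and the antioxidant factor Nfe2l2 (−0.15) fell. Of all genes, 6.88% rose in null mice and 8.35% in wild-type mice. With the dimmest 50% of genes left out, 15.3% and 17% of the genes kept rose, so 2 of 10 lies near those shares. On average over the genotypes, 22.2% of the genes kept rose and 27.8% fell. Of 8 measured proteins that bind the proteasome, the deubiquitinase Usp14 (0.29 and 0.23), the ligase Ube3c (0.29 and 0.31) and the scaffold Ecpas (0.23 and 0.22) rose in each genotype. Of 22 fits that left out 1 array, the wild-type call of Usp14 was lost in 7, and the calls of Ecpas in 6 (null mice) and 5 (wild-type mice). Of 11 other settings, the wild-type call of Usp14 was lost in 4, and the calls of Ecpas in 2 in each genotype. On average Txnl1 and Zfand5 (0.16 each) rose and Akirin2 (−0.15), which carries proteasomes into the nucleus, fell. The averaged calls of Sel1l and Akirin2 were lost in 9 and 7 of 22 fits that left out 1 array, and in 3 of 10 other settings each. Among 5 shuttle factors that deliver tagged proteins, Ubqln4 rose in both genotypes (0.39 and 0.35), Ubqln1 rose in null mice (0.19), Ubqln2 fell in wild-type mice (by 0.25), and Rad23b rose on average (0.15). The Ubqln1 call was lost in 18 of those 22 fits and in 6 of 11 other settings, and the Ubqln2 call in 3 of the fits and 3 of the settings. The ubiquitin genes themselves were not measured by a probe set with 1 symbol, and Uba6, an enzyme that activates ubiquitin, was not called.

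PPARα status made no called difference to any of these genes. At 5 °C, 0 of the 51 differed between null and wild-type mice, where 0.149% of all genes did, and at 28 °C 0 differed, where 0.194% did. At an unadjusted p under 0.05 in limma the counts were 0 at 5 °C and 3 at 28 °C (Psmb1, Psmd7 and Psmf1, with changes of −0.17, −0.15 and 0.19), which were named after their values were seen. Of all 22180 genes, 1476 had such a p at 5 °C and 1496 at 28 °C. The cold effects differed between genotypes in 0 of the 51, with 0 at an unadjusted p under 0.05, and in 0% of all genes, 1137 of which had such a p. The differences of the cold effects ran between −0.25 and 0.20, and in 44 of the 51 genes the 95% interval lay within 0.5 units of 0 on either side. The widest bounds were −0.75 (Psme2) and 0.57.

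The constitutive subunits varied together among mice of a group to unequal degrees. Within groups, the deviations of Psmb5 ran with the mean of the other constitutive subunits (r = 0.72 over 22 arrays), and those of Psma2 and Psmc5 did so most closely (0.82 each). The values were lowest for Psma7 (0.16), Psmc3 (0.18), Psmb3 (0.22), Psma3 (0.27) and Psmc4 (0.28). Those of Psmb8, Psmb9 and Psmb10 ran weakly the other way (−0.37, −0.28 and −0.20). These values share array and normalization and are given as a description.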

How the data were processed

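RNA of inguinal white fat (100 ng per array, RNA integrity number above 8, per the labels) was hybridised to 22 whole-transcript arrays, 1 mouse each. The authors deposited log2 values per probe set made with RMA, per the submitters' processing notes, in a version not given in the sources used here. Nothing was normalized again in the main fit. Of 41345 probe sets 23521 had 1 symbol, 1814 several and 16010 none, and only the first were used. The probe set with the highest mean over all arrays stood for each of 22180 genes. Arrays have no read depth, so their number limits the precision.

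One limma 3.58.1 fit (R 4.3.3) of 4 group means gave 6 comparisons, with Benjamini-Hochberg adjustment over all genes and 18 residual degrees of freedom. The genes and lists were chosen with earlier results of these data known. In each role the 3 genes with the largest average cold change, the catalytic subunits, activators, Psmf1, Pomp and Nfe2l1 were followed under every alternative. The dim Psma8, Psmb11 and Psmc3ip were left out of this. Up to 4 genes per companion list with the smallest p were followed as well. Sel1l and Akirin2, called against most of their lists, were added. Other genes, such as Zfand5, were not followed. Within-array differences were tested by exact permutation. The fit was tested on simulated data. Alternatives were other scalings, filters on dim genes, probe set means, variance models, array weights, marker covariates and leaving out each array. Replicate numbers were not treated as pairs in the main fit. The deviations of 6 of 31 same-numbered pairs correlated above 0.1 (lowest −0.25, highest 0.35). Differently numbered arrays were not compared, so this check cannot tell whether the numbers pair mice.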

Additional observations from a re-analysis of the deposited data

Results flagged for a closer look

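Of 128 groups of arrays checked, 6 held 1 array that stood apart from the rest of its group, and chance alone flags about 1 in 20 groups. The wild-type cold mouse of replicate 3 had Psmc2 at 8.10, below the next at 8.35. The null cold mouse of replicate 1 had Psme1 at 8.65, above the next at 8.51. Among warm wild-type mice, replicate 3 had Psme2 at 5.19 and Nfe2l1 at 8.23, below the next at 5.59 and 8.39, and replicate 6 had Psmf1 at 6.51, below the next at 6.87. The difference of Psmb9 minus Psmb6 was −0.55 in the wild-type cold mouse of replicate 1, above the next at −1.09. No gene of the 51 moved one way in every cold mouse of one genotype and the other way in every cold mouse of the other.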

How the results depend on the processing

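The counts of called genes stayed within 1.5 times of the reported ones in every setting but 1. That was the macrophage marker mean as a covariate, chosen after seeing the data, with 0 called in null mice, 1 in wild-type mice and 1 on average, where the covariate and temperature are nearly the same variable. It also turned the signs of Nfe2l1 in null mice (−0.039), of Psmb9 in wild-type mice (0.18) and on average (0.059), and of Psmb10 in wild-type mice (0.038). Psmf1 in wild-type mice turned to 0.014 with array medians subtracted, and ran between −0.11 and 0.016 when 1 array was left out. Leaving out 1 array at a time gave 17 to 24 calls in null mice, 18 to 24 in wild-type mice and 27 to 34 on average, and 0 in each comparison of genotypes. Over the other settings the counts ran between 15 and 27, 18 and 28, and 29 and 37, the lowest in the first 2 with only the groups compared in the fit, and the genotype comparisons gave 0 in all of them. On average over the genotypes, array medians subtracted gave 15% of all genes higher and 9.95% lower.

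The main fit did not treat replicate numbers as pairs. With replicate number as a block 22, 21 and 31 genes were called. As pairs by replicate number, the within-array differences changed by −0.97 and −1.11 (Psmb8 minus Psmb5, null and wild type), −0.61 (Psmb9 minus Psmb6, null), and −0.70 and −0.55 (Psmb10 minus Psmb7), each with an exact p of 0.0625, the smallest that 5 pairs allow. Without 1 array these ran between −0.98 and −0.85, −1.30 and −1.11, −0.61 and −0.45, −0.73 and −0.62, and −0.60 and −0.44, and for Psmb9 minus Psmb6 in wild-type mice between −0.46 and −0.27. Dim probe sets, such as those of Psma5 and Psmg4, limit what can be seen of these genes.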
